A study of Mus musculus with 18 samples.

Results

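The 31 genes described here encode the subunits of the constitutive 26S proteasome, and they were taken by symbol from a list of 20S and 19S subunit genes, out of 55401 genes in the mRNA-seq count tables. The list held 7 genes of the 20S alpha ring, 7 of the 20S beta ring, 6 ATPases of the 19S regulatory particle and 11 non-ATPase subunits of the 19S particle. All 31 were found, and all 31 passed the filter on low counts that left 14688 genes for testing. Their counts were high, between 923 and 13013 in a library, and made up between 0.532% and 0.642% of all counts.

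Cells of the mouse line NIH/3T3, fibroblasts of embryonic origin, were sequenced either unedited (WT) or carrying a knockout of XPO4 (KO), an exportin that carries proteins and circular RNAs out of the nucleus. The mRNA-seq set held 3 KO and 3 WT libraries, and a circRNA-seq set held 2 libraries of each genotype from nuclear, cytoplasmic and whole-cell RNA, after RNase R digestion of linear RNA. No treatment or time point was labelled, and the KO line was made with CRISPR-Cas9 with both XPO4 copies carrying the same edit, so 1 edited line stood for the genotype. The comparison asked which mRNAs differed between cells with and without XPO4.

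The proteasome is the main protease of the cytosol and nucleus and degrades proteins that carry chains of ubiquitin. Its 20S core is a barrel of stacked rings, with the outer alpha rings gating the entry and the inner beta rings holding the catalytic sites. The 19S particle sits on the end of the barrel, where its non-ATPase subunits bind and remove ubiquitin and its ring of ATPases unfolds the substrate and feeds it into the core. In mammals the transcription factor Nfe2l1 drives the subunit genes together when proteasome activity is short, through antioxidant response elements in their promoters.

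Start-site windows of 3 subunit genes are shown because these genes mark the ends of the range of differences described below: Psmb5 and Psmd14 were the members with the largest rises, and Psmd1 was the member that fell. Each window runs 5′ to 3′ on the strand of the gene, from 250 bases before to 50 bases after the RefSeq start site (GRCm38.p6). Capitals mark the antioxidant response element core TGACNNNGC in Psmb5 and the CCAAT box, read on either strand, in Psmd14. Neither pattern was found in the Psmd1 window.
Psmb5, chr14:54617946-54618245, minus strand: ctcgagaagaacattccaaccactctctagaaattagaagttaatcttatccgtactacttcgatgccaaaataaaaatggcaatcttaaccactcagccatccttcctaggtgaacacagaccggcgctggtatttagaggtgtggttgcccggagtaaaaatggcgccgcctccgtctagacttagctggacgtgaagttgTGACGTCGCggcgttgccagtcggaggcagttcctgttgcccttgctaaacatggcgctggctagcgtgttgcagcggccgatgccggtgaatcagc
Psmd14, chr2:61711444-61711743, plus strand: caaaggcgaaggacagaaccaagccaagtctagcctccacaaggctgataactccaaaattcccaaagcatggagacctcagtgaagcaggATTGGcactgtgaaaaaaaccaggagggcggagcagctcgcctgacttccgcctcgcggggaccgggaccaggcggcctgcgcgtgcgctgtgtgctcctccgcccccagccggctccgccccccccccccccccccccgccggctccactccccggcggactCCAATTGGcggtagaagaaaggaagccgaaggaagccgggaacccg
Psmd1, chr1:86064369-86064668, plus strand: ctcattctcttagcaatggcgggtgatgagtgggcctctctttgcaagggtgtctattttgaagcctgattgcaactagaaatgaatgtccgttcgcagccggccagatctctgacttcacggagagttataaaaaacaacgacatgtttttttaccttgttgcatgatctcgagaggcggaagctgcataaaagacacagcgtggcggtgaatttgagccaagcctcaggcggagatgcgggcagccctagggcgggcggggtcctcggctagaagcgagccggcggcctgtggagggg
The element in Psmb5 began 47 bases before the start site. In Psmd14, 1 CCAAT box began 159 bases before the start site, and the other pair, at 4 and 7 bases after it, overlap as the opposite strands of a single palindrome. RefSeq windows were matched for 25 of the 31 members, and both patterns were searched on both strands of each. The TGACNNNGC core was found in 4 of these 25 (16.0%), in Psmb5, Psmb6, Psmc6 and Psmd12, against 14.0% of 27025 genes. CCAAT was found in 10 of 25 (40.0%) against 41.1% of genes. Both shares were close to those across genes.

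Several features of the mRNA-seq libraries touch the values below. Total counts per library lay between 16974062 and 22057323. Genotypes were assigned by sample title, although the heading of the count column in each of the 6 tables gives the opposite genotype. If the headings were right, every direction below would turn around. Xpo4 mRNA could not settle this, with 33.0, 31.5 and 31.2 CPM (counts scaled to equal library size) in WT and 39.8, 28.4 and 40.4 in KO (log2 fold change 0.18, edgeR's quasi-likelihood test, adjusted p = 0.193), and a small edit can remove a protein while its mRNA stays. Without KO replicate 2, Xpo4 mRNA was higher in KO (log2 fold change 0.34, adjusted p = 0.000252). The Y-linked genes Kdm5d, Eif2s3y, Uty and Ddx3y summed to 0 counts in each WT library and to 1059 to 1208 in the KO libraries, so the lines differed beyond XPO4, and the knockout and that difference cannot be told apart. KO replicate 2 stood apart from its group, with a chi-square per gene of 10.4 and 12.1 against the other two KO libraries, where the remaining replicate pairs gave 3.06 to 5.03. The extraction protocol in the labels speaks of blood, but all 11 fibroblast markers (collagens, Vim, Fn1, Thy1, Pdgfra, Pdgfrb, S100a4) exceeded 1 TPM (counts per exon length, scaled to a common sum) in every library, with sums of 9510 to 10100 in WT and 9780 to 10900 in KO. The 6 immune markers summed to 13.1 to 19.9 TPM in WT and 9.66 to 12.2 in KO, with Cd3e at 0. Cd68 held most of that sum, at 12.1 to 18.5 TPM in WT and 7.72 to 10.3 in KO. The 6 epithelial markers summed to 8.76 to 9.42 TPM in WT and 0.925 to 2.24 in KO, with Krt18 and Epcam at 0. Most of this was Krt14, at 8.42 to 9.19 TPM in WT and 0.884 to 1.91 in KO. The endothelial and neural lists summed to at most 8.87 TPM in any library. The part of these low marker levels in the results was not tested.

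Of the 31 subunit genes, 15 were higher in KO and 1 was lower, and 15 did not pass an adjusted p of 0.05 in edgeR's quasi-likelihood test, adjusted by Benjamini-Hochberg over all genes tested. The 16 genes called are 51.6% of the members, where 48.7% of all 14688 genes were called and 59.9% of the 4560 genes whose mean count was at or above 1044, that of the lowest member. The share called was therefore near the background. The split by direction was not even, with 48.4% of members higher against 25.1% of all genes and 31.8% of the high-count genes, and 3.23% lower against 23.6% and 28.0%. In 17 members (54.8%) every KO library lay above every WT library, against 29.1% of all genes and 35.9% of the high-count genes, and in 1 member every KO library lay below, against 28.7% and 32.3%.

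The differences were small. The members' log2 fold changes ran from -0.18 to 0.48, with a median of 0.158 against -0.0029 over all genes tested and 0.0116 over the high-count genes. A positive value was seen in 26 of 31 members (83.9%) and in 49.7% of all genes. The median absolute log2 fold change was 0.162 in the members, 0.209 in the high-count genes and 0.276 in all genes tested. Subunit mRNA summed over the 31 genes was 6514, 6770 and 6639 TPM in WT and 7451, 7648 and 7171 TPM in KO, so all KO libraries were above all WT libraries, with a ratio of means of 1.12. Without KO replicate 2 the ratio was 1.10. Bulk libraries cannot tell apart a change in the makeup of the cells and a change in RNA per cell, and nothing states that the replicates came from separate cultures, so these p-values measure the spread between the libraries at hand.

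**Figure D1:**
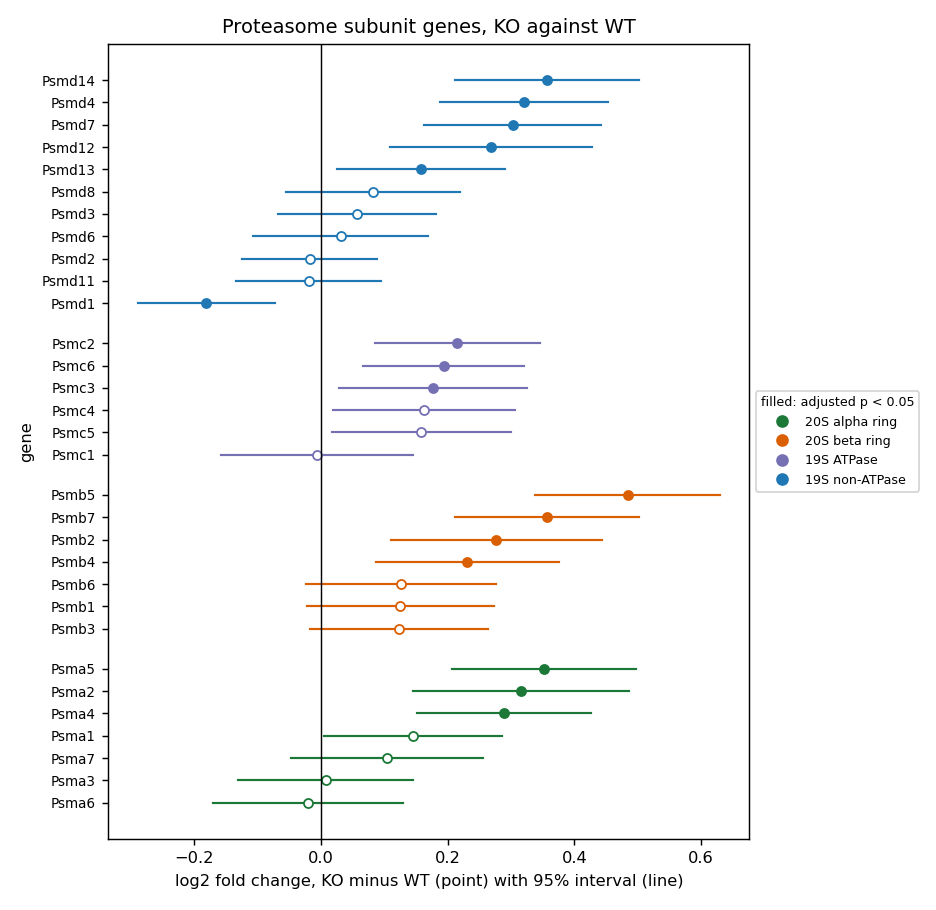
The log2 fold change of KO over WT for each of the 31 subunit genes, grouped by place in the proteasome, with the point for the estimate, the line for its 95% interval and filled points for an adjusted p under 0.05. Psmb5 lies farthest right at 0.48, Psmd1 alone is filled on the left at -0.18, and the 7 beta ring genes all lie to the right of 0.

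In the alpha ring, whose subunits form the gate of the core, 3 of 7 genes rose and 4 did not pass the test, with a median log2 fold change of 0.145. Psma5 was measured at 113, 128 and 127 CPM in WT and 151, 169 and 150 CPM in KO. All KO libraries lay above all WT libraries, and the log2 fold change was 0.35 (SE 0.0671, adjusted p = 0.000729). Psma2 was at 112, 125 and 130 CPM in WT and 143, 171 and 142 CPM in KO, again without overlap, and its log2 fold change was 0.32 (SE 0.0790, adjusted p = 0.00491). Psma4 was at 120, 121 and 123 CPM in WT and 137, 161 and 146 CPM in KO. Its groups did not overlap either, with a log2 fold change of 0.29 (SE 0.0639, adjusted p = 0.00217). The other alpha genes had log2 fold changes of 0.15 for Psma1, 0.10 for Psma7, 0.01 for Psma3 and -0.02 for Psma6, and none passed. Ring partners that assemble in equal numbers thus ranged from -0.02 to 0.35 in their mRNA.

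The beta ring had the largest median of the 4 groups, 0.231, and 4 of its 7 genes rose. Psmb5, the subunit with the chymotrypsin-like site (ENSMUSG00000022193.7, chr14:54614119-54618022, minus strand, GRCm38), was measured at 47.5, 47.4 and 51.4 CPM in WT and 66.7, 73.5 and 64.5 CPM in KO. The lowest KO library was well above the highest WT library, and KO was 1.40-fold higher (log2 fold change 0.48, 95% interval 0.34 to 0.63, SE 0.0678, adjusted p = 5.96e-05). Psmb7, which carries the trypsin-like site, was at 70.1, 72.8 and 76.9 CPM in WT and 93.0, 102 and 86.8 CPM in KO. It also showed no overlap, with a log2 fold change of 0.36 (SE 0.0675, adjusted p = 0.000698). Exons of Psmb7 share 11.8% of their length with Nek6, and Psmb5 shares 12.1% with Mir686, which had no counts. Psmb6, which carries the remaining catalytic site, the caspase-like one, did not pass, with a log2 fold change of 0.13 (adjusted p = 0.149) and overlapping groups.

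Among the non-catalytic beta subunits, Psmb2 and Psmb4 rose and Psmb1 and Psmb3 did not pass. Psmb2 was at 142, 162 and 159 CPM in WT and 171, 209 and 181 CPM in KO, a log2 fold change of 0.28 (SE 0.0771, adjusted p = 0.00917). Psmb4 was at 232, 252 and 251 CPM in WT and 284, 314 and 264 CPM in KO, a log2 fold change of 0.23 (SE 0.0669, adjusted p = 0.0115). Both genes had KO libraries wholly above WT, but both lost the call without WT replicate 1, with adjusted p of 0.0521 and 0.0622. Psmb1 and Psmb3 had log2 fold changes of 0.13 and 0.12.

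Among the 19S ATPases, which unfold substrates, 3 of 6 rose, with a median log2 fold change of 0.17. Psmc2 was at 193, 213 and 210 CPM in WT and 232, 253 and 230 CPM in KO. The groups did not overlap, and the log2 fold change was 0.22 (SE 0.0602, adjusted p = 0.00945). Psmc6 rose by a log2 fold change of 0.19 (adjusted p = 0.0148), and Psmc3 by 0.18 with overlapping libraries and an adjusted p of 0.0468. Without WT replicate 1, Psmc2 and Psmc6 lost their calls (adjusted p = 0.0593 and 0.0779). Psmc3 shares 8.25% of its exon length with Slc39a13, and its call was lost in 5 of the 6 fits that left out a library. Psmc4 and Psmc5 both stood at 0.16 and missed the threshold (adjusted p = 0.0579 and 0.0609), and Psmc1 stood at -0.01.

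The 19S non-ATPase genes were the most mixed, with 5 of 11 higher, 1 lower and a median log2 fold change of 0.0824. Psmd14, the deubiquitinase that removes the ubiquitin chain from the substrate (ENSMUSG00000026914.15, chr2:61711694-61800376, plus strand), was at 47.1, 49.2 and 49.5 CPM in WT and 63.4, 66.0 and 57.2 CPM in KO. The WT libraries lay close together and below every KO library, and the log2 fold change was 0.36 (SE 0.0672, adjusted p = 0.00067). Psmd7, the partner with which Psmd14 forms a dimer, was at 179, 202 and 198 CPM in WT and 227, 255 and 232 CPM in KO, with a log2 fold change of 0.30 (SE 0.0647, adjusted p = 0.0017). Psmd4, a receptor for ubiquitin chains, was at 138, 145 and 151 CPM in WT and 174, 193 and 174 CPM in KO, with a log2 fold change of 0.32 (SE 0.0614, adjusted p = 0.000755). Neither gene had overlapping groups. Psmd12, a scaffold subunit of the lid, was at 115, 123 and 120 CPM in WT and 131, 162 and 138 CPM in KO, with a log2 fold change of 0.27 (SE 0.0738, adjusted p = 0.00867). Psmd13, another lid subunit, was called at 0.16 with an adjusted p of 0.0466. Its exons share 10.1% with Sirt3, and its call was lost in 8 of the 11 alternative analyses.

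Psmd1, the largest scaffold of the 19S base (ENSMUSG00000026229.17, chr1:86064387-86139151, plus strand), was the single member that fell. It was measured at 348, 364 and 357 CPM in WT and 311, 313 and 319 CPM in KO. Every KO library lay below every WT library, and the log2 fold change was -0.18 (SE 0.0502, adjusted p = 0.00906). Without WT replicate 2 the adjusted p was 0.0509. The second large scaffold, Psmd2, did not pass, with a log2 fold change of -0.02 (95% interval -0.12 to 0.09). Psmd3, Psmd6, Psmd8 and Psmd11, further lid subunits, stood at 0.06, 0.03, 0.08 and -0.02.

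For the 15 members that did not pass, the estimates lay between -0.02 and 0.16, and the outer bounds of their 95% intervals were -0.170 and 0.306. A rise of the size seen in Psmb5 (0.48) was thus outside the interval of each of these genes, whereas a rise like that of Psmb4 (0.23) was inside the interval of several. Their standard errors ranged from 0.0494 to 0.0704, close to those of the genes that passed.

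The shift of the members was not equal in the 3 KO libraries. As log2 CPM minus the WT mean, the median over the 31 members was -0.0588, 0.0367 and 0.0336 in WT and 0.137, 0.277 and 0.0425 in KO, so KO replicate 3 stood little above WT replicates 2 and 3. The highest of the 6 libraries was KO replicate 2 for 27 of the 31 members. It was the highest of the KO libraries for 30 members, where 39.4% of all tested genes were highest in it. Median values over all genes were near 0 in every library. Without KO replicate 2, 14 members were called, 13 higher and 1 lower, and all called genes rose from 7151 to 7397. The direction of the called members thus did not rest on that library, but each of the called rises was smaller without it. The log2 fold change of Psmb5 went from 0.48 to 0.43, and that of Psmd12 from 0.27 to 0.18. Without WT replicate 1, the lowest WT library for the members, 10 members were called, 9 of them higher, and all called genes numbered 6179. In 17 of the 31 members (54.8%) KO replicate 3, like the other KO libraries, lay above every WT library. Over all genes tested the share was 29.1%.

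**Figure D2:**
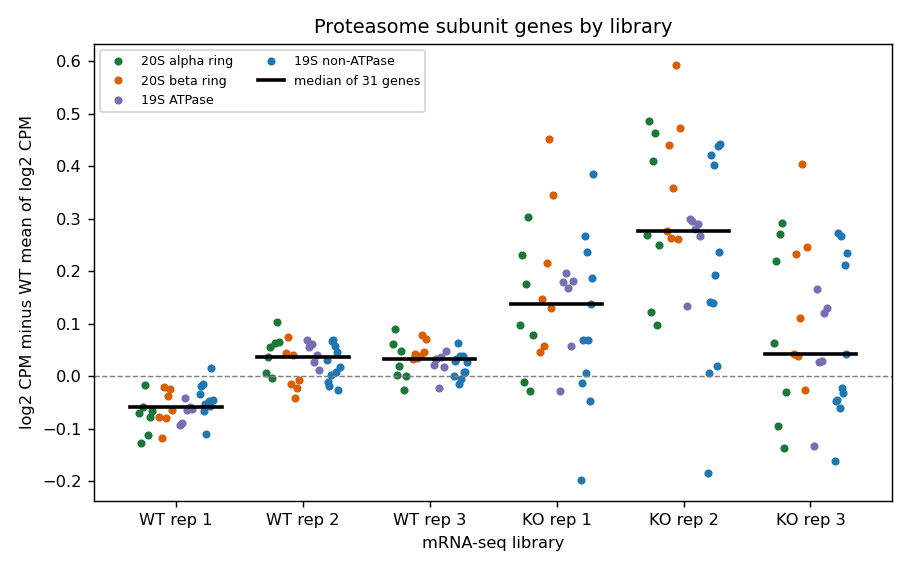
Each point is 1 subunit gene in 1 mRNA-seq library, as log2 CPM minus the mean log2 CPM of the WT libraries, coloured by place in the proteasome, and the bar is the median of the 31 genes. The medians are 0.137, 0.277 and 0.0425 in the KO libraries, and KO replicate 2 lies highest.

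A set of 9 members, namely Psma2, Psma4, Psma5, Psmb5, Psmb7, Psmd4, Psmd7, Psmd12 and Psmd14, passed in all 11 alternative analyses. The share of all genes that passed in all 11 was not counted, so no background stands beside this number. These changed the scaling, the filter, the tool (DESeq2) or the model (a term for the replicate number), or left out each library in turn. Over the fits that left out a library, the log2 fold change of Psmb5 ranged from 0.43 to 0.53 and its highest adjusted p was 0.00108. For Psmd14 the range was 0.32 to 0.42, with a highest adjusted p of 0.00484.

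Levels per length spread over a wide range although the subunits are built into the particle in equal numbers. As TPM over the exon length of each gene, Psmd2, the scaffold that binds shuttle proteins, was the highest at 470, 458 and 465 in WT and 476, 445 and 460.0 in KO. Psmb2 followed at 391, 433 and 418 in WT and 473, 536 and 498 in KO, and Psmb4 at 393, 415 and 409 in WT and 486, 495 and 448 in KO. By mean, Psmd2 was highest in WT (464 ± 5.75 TPM, SD, n = 3) and Psmb2 in KO (502 ± 31.3 TPM, SD, n = 3).

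At the other end were 2 genes that rose. Psmd14 had the lowest level, 55.3, 56.1 and 55.6 TPM in WT and 75.1, 72.1 and 67.0 TPM in KO. Psmb7 came next at 67.9, 68.4 and 71.3 TPM in WT and 90.7, 91.5 and 83.9 TPM in KO. Psmd11, a lid subunit, stood just above them with 95.3, 96.1 and 96.8 TPM in WT and 96.0, 92.8 and 96.2 TPM in KO, and did not differ between the genotypes beyond this spread. Exon length here is the union of all annotated exons, so a level is understated where long exons are little used.

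**Figure D3:**
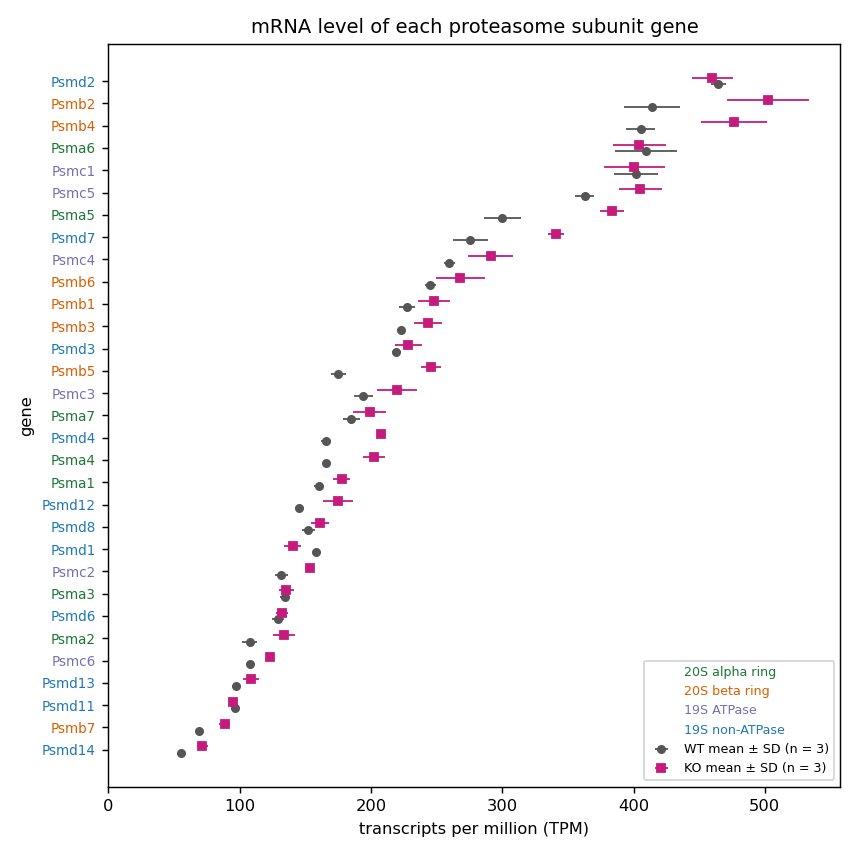
TPM of each subunit gene on a linear axis, as the mean with SD of 3 WT (circles) and 3 KO (squares) libraries, ordered by the mean of all 6. Levels run from 63.5 for Psmd14 to 462 for Psmd2, and the squares of Psmb2, Psmb4, Psmb5, Psma5 and Psmd7 lie clearly right of their circles.

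Summed by group, the alpha ring gave 1462 ± 47.4 TPM in WT and 1636 ± 61.0 in KO, a ratio of 1.12 (SD, n = 3 each). The beta ring gave 1760 ± 34.1 and 2072 ± 93.3, a ratio of 1.18. The ATPases gave 1458 ± 38.1 and 1594 ± 63.4, and the non-ATPase subunits 1960 ± 15.1 and 2122 ± 32.0, ratios of 1.09 and 1.08. In each of the 4 groups every KO library was above every WT library in summed TPM. As the group median of log2 CPM minus the WT mean, the non-ATPase subunits overlapped. Their WT libraries stood at -0.0464, 0.018 and 0.027. The KO libraries stood at 0.0691, 0.193 and -0.0215, so KO replicate 3 lay within the WT range. The medians of the other groups did not overlap. No test was made of the group sums or medians.

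Whole chromosomes differed between the KO and WT libraries, and the members are scattered over them. The median log2 fold change of the tested genes was -0.209 on chromosome 1 (885 genes), 0.161 on chromosome 3 (753 genes) and 0.445 on chromosome 10 (689 genes, with no member). Psmd1, the member that fell, lies on chromosome 1 and stood 0.028 above the median there. Psma5, Psmd4 and Psmb4 lie on chromosome 3, and stood 0.19, 0.16 and 0.07 above its median. Psmb5 on chromosome 14 and Psmd14 and Psmb7 on chromosome 2 were on chromosomes whose medians were -0.01 and 0.02. Relative to the median of its own chromosome, a member was higher in 30 of 31 cases, with a median of 0.16 and a range of -0.058 (Psmd11) to 0.489 (Psmb5). Of all 14688 genes tested 7337 were higher, a share that a median fixes. Some of the 30 stood barely above their median, such as Psmd3 by 0.019 and Psmd2 by 0.036. The part that chromosome-wide differences have in the values of Psmd1, Psma5, Psmd4 and Psmb4 was not tested.

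**Figure D4:**
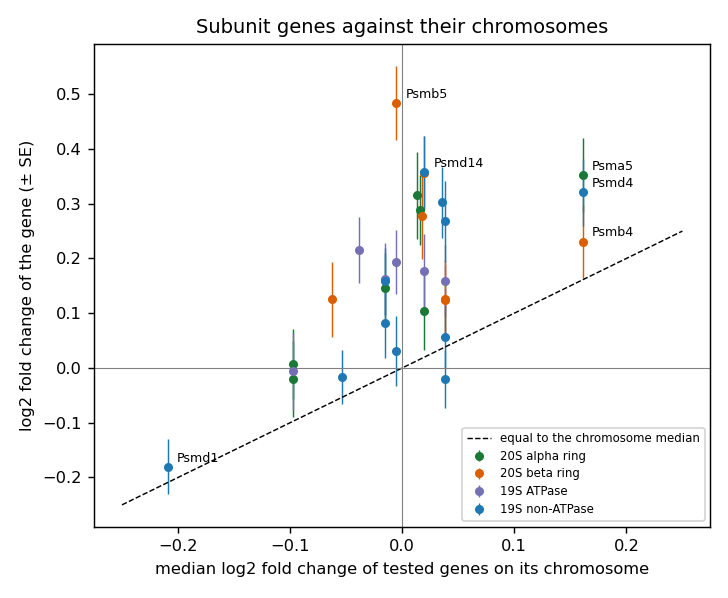
The log2 fold change of each subunit gene (vertical, with its SE) against the median log2 fold change of the tested genes on its chromosome (horizontal), with a dashed line where both are equal. Psmd1 lies near the line at -0.18, the 3 genes of chromosome 3 lie above a median of 0.161, and Psmb5 stands highest at 0.48 over a median near 0.

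Of 40 further genes of the ubiquitin and proteasome pathway, 36 were tested, and 10 rose, 5 fell and 21 did not pass. The 41.7% called is under the 48.7% of all genes, and their median log2 fold change was 0.0835. The list held inducible or tissue-specific 20S subunits, 2 further 19S subunits, assembly factors, activators, bound enzymes and adaptors, regulators of transcription and ubiquitin genes.

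The inducible 20S subunits, which replace catalytic beta subunits in the immunoproteasome, fell in KO where they could be tested. Psmb9, the counterpart of Psmb6, was at 4.72, 5.34 and 5.19 CPM in WT and 2.07, 2.65 and 2.82 CPM in KO, a log2 fold change of -1.02 (SE 0.185, adjusted p = 0.000507). Psmb10, the counterpart of Psmb7, was at 23.8, 21.9 and 22.1 CPM in WT and 17.5, 16.8 and 16.7 CPM in KO, a log2 fold change of -0.41 (SE 0.0820, adjusted p = 0.00105). Every KO library was below every WT library for both genes. Exons of Psmb9 share 5.79% of their length with Tap1, whose mean count was 418. Psmb8, the counterpart of Psmb5, had 4, 3 and 15 counts in WT and 0, 7 and 0 in KO and was not tested, like the thymus subunit Psmb11 and the testis subunit Psma8, with at most 1 count. Per exon length, Psmb10 was at 68.2%, 60.4% and 57.6% of the level of Psmb7 in WT and at 37.7%, 33.2% and 38.6% in KO. Psmb9 was at under 2% of Psmb6 in all libraries, with 1.73%, 1.95% and 1.81% in WT and 0.68%, 0.794% and 1.03% in KO. These ratios have no test, and each rests on both of its genes.

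Of 5 genes that act in the transcription of subunit genes, 1 passed. Nfe2l1, the factor named above, was at 281, 281 and 278 CPM in WT and 268, 241 and 266 CPM in KO. Its KO libraries were all below WT, but the difference did not pass (log2 fold change -0.12, adjusted p = 0.104). Nfe2l2, the related factor of the oxidative stress response, was at 108.8, 110.5 and 109.6 CPM in WT and 102, 115 and 113 CPM in KO (log2 fold change 0.00, adjusted p = 0.976). Ngly1, which removes sugars from Nfe2l1 during its activation, rose from 33.1, 39.0 and 39.8 CPM in WT to 43.5, 45.5 and 47.5 CPM in KO (log2 fold change 0.29, adjusted p = 0.00863). Ddi2, the protease that processes Nfe2l1, and Vcp, which extracts it from the membrane, did not pass, at -0.08 and 0.13. The measurement is of mRNA, and Nfe2l1 is controlled largely after translation.

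Several enzymes and adaptors that bind the proteasome rose. Ubqln2, a shuttle for ubiquitinated proteins on the X chromosome, had the largest rise of the list, from 102, 94.96 and 99.3 CPM in WT to 179, 175 and 187 CPM in KO (log2 fold change 0.87, adjusted p = 4.3e-08). The deubiquitinase Uchl5 was at 28.2, 35.7 and 28.4 CPM in WT and 35.3, 42.8 and 35.5 CPM in KO, with overlapping groups (log2 fold change 0.30, adjusted p = 0.0271). Its call was lost without WT replicate 1 or WT replicate 3 (adjusted p = 0.109 and 0.111). Ubqln1, Usp14 and Ecpas rose by 0.22, 0.17 and 0.14 on the log2 scale.

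Genes of ubiquitin supply were also listed. Ubb, a polyubiquitin gene, stood at 0.03 on the log2 scale without passing. Rps27a, a fusion of ubiquitin with a ribosomal protein, was at 579, 815 and 834 CPM in WT and 275, 582 and 226 CPM in KO, and the groups overlapped through KO replicate 2 (log2 fold change -1.04, SE 0.259, adjusted p = 0.00468). DESeq2 gave an adjusted p of 0.0575 for it. Genes that encode ubiquitin share near-identical coding sequence, so the values of Ubb and Rps27a are uncertain. Uba1, the enzyme that activates ubiquitin, fell by 0.18 on the log2 scale.

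Assembly factors and activators were called unevenly, where 48.7% of all genes tested were called. Of the tested chaperones of 19S assembly 2 of 3 were called, and of the activators and inhibitor 1 of 5. None of the 5 chaperones of 20S assembly passed, nor did the further 19S subunits Adrm1 and Sem1. Of the 19S chaperones, Psmd5 rose by 0.27, and Psmd10 fell from 29.4, 37.0 and 34.3 CPM in WT to 26.0, 27.4 and 23.5 CPM in KO (log2 fold change -0.39, adjusted p = 0.0038). Paaf1 was not analysed here. Of the activators, Psme2 was at 30.5, 37.8 and 29.3 CPM in WT and 40.3, 38.0 and 39.6 CPM in KO (log2 fold change 0.27, adjusted p = 0.0227), and its partner Psme1 stood at 0.01. The call of Psme2 was lost without WT replicate 1, WT replicate 3 or KO replicate 1 (adjusted p = 0.0914, 0.115 and 0.0661).

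**Figure D5:**
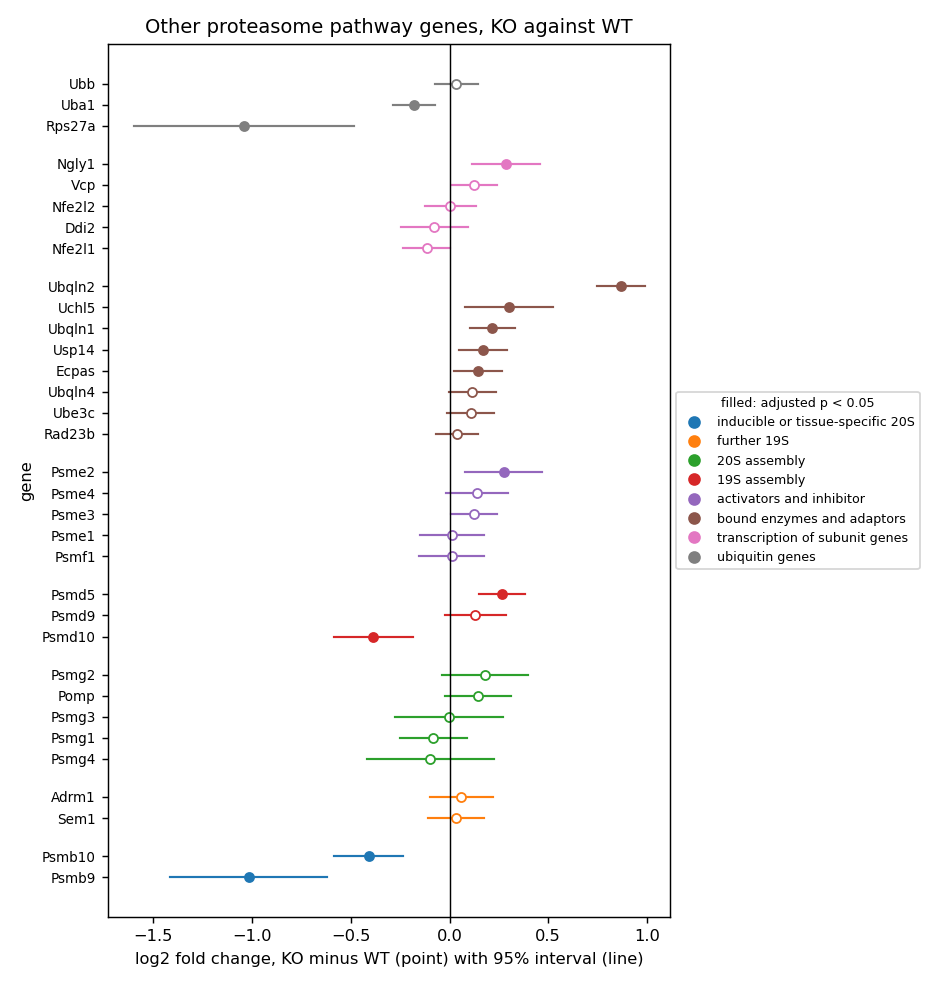
The log2 fold change of KO over WT for tested pathway genes outside the 31 subunits, grouped by role, with 95% intervals and filled points for an adjusted p under 0.05. Ubqln2 at 0.87 lies farthest right, and Rps27a at -1.04 and Psmb9 at -1.02 farthest left.

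Circular RNAs were listed for 11 of the 31 subunit genes. The circRNA-seq lists held 26 circRNAs with both ends on exon edges of a member, 12 in the cytoplasm, 1 in the nucleus and 17 in whole-cell RNA, of which 4 were in both the cytoplasmic and whole-cell lists. Junction reads were few. The members together had 39 and 49 reads in WT against 64 and 50 in KO cytoplasm, 0 and 1 in WT against 6 and 3 in KO nuclei, and 83 and 90 in WT against 75 and 84 in KO whole-cell RNA. Depth differed by genotype. All junction reads numbered 2176 and 2600 in WT against 3689 and 4314 in KO nuclei. They numbered 77818 and 81941 in WT against 50629 and 63335 in KO cytoplasm. Whole-cell libraries held 57780 and 55109 in WT against 58165 and 50341 in KO. Junction reads of single genes and circRNAs are given here without scaling to these depths.

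The circRNA with the most reads came from Psmd2 (chr16:20656543-20657609, GRCm38), whose whole-cell reads numbered 17 and 19 in WT against 26 and 28 in KO, and it was in no cytoplasmic list. The single nuclear one came from Psmb2 (chr4:126684122-126687099), seen 0 and 1 times in WT against 6 and 3 times in KO. A circRNA of Psma6 (chr12:55410127-55414498) was counted 8 and 8 times in WT against 19 and 15 times in KO cytoplasm, and 5 and 3 times in WT against 0 and 3 times in KO whole-cell RNA. A circRNA of Psmd4 (chr3:95033482-95036745) went the other way in cytoplasm, with counts of 10 and 11 in WT against 0 and 1 in KO. It was in no whole-cell list, and its relation to Psmd4 mRNA, which was higher in KO, was not tested. With 2 libraries a group and counts this low, no test was made, and the filter behind the lists is not given in the sources used here.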

How the data were processed

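For mRNA-seq, the authors aligned reads to GRCm38 (mm10) with HISAT2 and deposited raw counts per gene from featureCounts (version 2.0.0), counted over exons as read pairs, without strand. Reads of overlapping genes and their antisense partners cannot be told apart this way. For circRNA-seq, the authors deposited counts of junction reads per circRNA from find_circ, whose starts were moved by 1 base to count from 1. Samples were grouped by title.

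Gene IDs were paired with symbols from the annotation (55141 of 55401). The test between genotypes was edgeR's (version 4.0.16 in R 4.3.3; filterByExpr, TMM, glmQLFit, glmQLFTest), with Benjamini-Hochberg adjustment over 14688 genes and a threshold of 0.05. CPM were scaled by TMM, and TPM used the deposited exon lengths. Intervals are at 95%. The method was tested on simulated data. Alternatives were RLE size factors, library totals, no filter, DESeq2 (version 1.42.0), a replicate block, CPM in place of TPM for the sum, and leaving out each library. Pattern searches and sums used Python 3.11.15 with pandas 2.3.3. No molecular identifiers are stated, so duplicate reads could not be told apart in the counts. Intervals and p-values rest on the spread between libraries.

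The 31 members and the pathway and marker lists were chosen with earlier results of these data known. Library values are given for the 12 called members with the largest absolute log2 fold change and for the 3 highest and 3 lowest in TPM, and for the 10 called pathway genes with the largest absolute change plus Xpo4, Nfe2l1 and Nfe2l2. A few genes of the pathway list are counted but not reported here by name or in the figure. Those of Psmd1 and of 4 circRNAs were added after their values were seen, as were the start-site windows of 3 genes. Near-identical pseudogenes named after Psmb5, Psmb6 and Psmb7 had a mean of at most 1.5 counts. No column of another sample was present.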

Additional observations from a re-analysis of the deposited data

How the results depend on the processing

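The count of called subunit genes was 16 by RLE size factors and by library totals, 17 without the filter on low counts, 16 with the replicate block and 15 by DESeq2, and it ranged from 10 to 19 when a library was left out. Of these, 15 rose in the first pair, 16, 15 and 14 in the others, and from 9 to 18 with a library left out. The count that fell was 1 throughout, except 0 without WT replicate 2 (range 0 to 1). The lowest count, 10 with 9 higher, came without WT replicate 1, which lost Psmb2, Psmb4, Psmc2, Psmc3, Psmc6 and Psmd13 (adjusted p from 0.0521 to 0.145). The cause was not tested. Called pathway genes ranged from 12 to 20 and all called genes from 6143 to 7397 with a library left out, and all called genes numbered 7696 without the filter, 7124 with the block and 6662 by DESeq2. The summed level of KO over WT was 1.118, ranging from 1.101 to 1.137 with a library left out, and 1.091 by CPM. None of the called members or of the called pathway genes followed through the alternatives turned its sign, and no scaling moved the median of all genes by more than 0.01. Psmd13 lost its call without the filter, with the block and by DESeq2 (adjusted p 0.0581, 0.0567 and 0.0619), and Rps27a by DESeq2. Replicate numbers are shared by the labels, and deviations of same-numbered WT and KO libraries correlated at 0.12, 0.0816 and -0.144 across genes. These values cannot decide whether the numbers mark pairs, as each rests on 1 library of each genotype. With the replicate block 14 pathway genes were called, and Psmc5 passed (adjusted p = 0.0431). At the members' depth, standard errors were about 0.05 to 0.08. The smallest difference called among the members was 0.158, in Psmd13. Psmc4 at 0.162 and Psmc5 at 0.158 were not called, so no single size of difference marked the limit.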
